A study of Mus musculus with 2 samples.

Results

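Chromatin accessibility at 10 genes of the basement membrane, Col4a1, Col4a2, Col7a1, Col18a1, Nid1, Nid2, Hspg2, Agrn, Fras1 and Frem2, was measured by ATAC-seq in basal cells of mouse back skin epidermis. ATAC-seq uses the transposase Tn5, which inserts sequencing adapters into open DNA, and reads out which stretches of chromatin are accessible and not which genes are transcribed. Both groups are single mice of the outbred CD1 stock. The stretched library came from a mouse whose skin had been expanded by mechanical force, and the control library from an untreated mouse. Each library was made from 10000 cells of the interfollicular epidermis, sorted as positive for ITGA6, an integrin subunit of cells that sit on the basement membrane, and negative for CD34, which hair follicle stem cells carry. The labels give neither the age of the mice nor how long the skin had been expanded, and with 1 animal per group no difference has a replicate check. Each merged accessible region with at least 20 counts summed over both libraries was given to the nearest protein-coding gene span of the RefSeq annotation on GRCm38, within 50 kb, with the shorter span taken on ties. The 10 genes received 126 regions, of which 115 had at least 20 counts and 11 had 1 to 19 counts and were left out, against 94857 regions at or over that minimum in all. Nearest to the minimum lay a Fras1 region with 2 counts in the stretched and 18 in the control library, just inside, and a Col18a1 region with 7 in the stretched and 12 in the control library, just outside.

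The basement membrane is a thin sheet of matrix that anchors the basal keratinocytes of the epidermis to the dermis. Its scaffold is built from networks of laminin and of type IV collagen, and nidogens and the heparan sulfate proteoglycans perlecan and agrin link these networks. In skin it is tied to the dermis below by anchoring fibrils of type VII collagen and by the complex of FRAS1 and the FREM proteins. Basal keratinocytes make some of these components and dermal fibroblasts others, and force on the tissue reaches the cells through receptors that hold on to this sheet.

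RefSeq promoter windows of 300 bases, from 250 before to 50 after an annotated start, were at hand for 8 of the 10 genes on GRCm38.p6. Nid2 and Fras1 had no entry. The windows below are those of Col4a1 and Col4a2, which are read in opposite directions from 1 shared accessible region, and those of Agrn and Frem2, whose start regions had the highest and the lowest fold among the annotated starts. They are written 5′ to 3′ in the direction of the gene, and capitals mark exact matches, on either strand, to an AP-1 site with the letters TGACTCA, to a TEAD site with the letters GGAATG, to a GC box with the letters GGGCGG, to a CCAAT box with just those letters or to a TATA box with the letters TATAAA. Some GC boxes overlap or touch, and then form 1 run of capitals.
Col4a1 (chr8:11312777-11313076, minus strand): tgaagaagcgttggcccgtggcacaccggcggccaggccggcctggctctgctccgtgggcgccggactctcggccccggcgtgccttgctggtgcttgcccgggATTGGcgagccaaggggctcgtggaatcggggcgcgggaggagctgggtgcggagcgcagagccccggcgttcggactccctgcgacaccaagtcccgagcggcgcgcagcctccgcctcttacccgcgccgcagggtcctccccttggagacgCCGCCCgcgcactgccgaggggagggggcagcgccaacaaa
Col4a2 (chr8:11312555-11312854, plus strand): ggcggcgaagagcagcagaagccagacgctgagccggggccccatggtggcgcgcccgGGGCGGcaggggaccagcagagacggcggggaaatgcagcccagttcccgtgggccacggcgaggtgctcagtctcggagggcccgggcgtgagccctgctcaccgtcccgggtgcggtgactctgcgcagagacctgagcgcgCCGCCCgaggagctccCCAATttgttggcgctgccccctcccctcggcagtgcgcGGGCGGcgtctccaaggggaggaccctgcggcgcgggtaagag
Agrn (chr4:156197439-156197738, minus strand): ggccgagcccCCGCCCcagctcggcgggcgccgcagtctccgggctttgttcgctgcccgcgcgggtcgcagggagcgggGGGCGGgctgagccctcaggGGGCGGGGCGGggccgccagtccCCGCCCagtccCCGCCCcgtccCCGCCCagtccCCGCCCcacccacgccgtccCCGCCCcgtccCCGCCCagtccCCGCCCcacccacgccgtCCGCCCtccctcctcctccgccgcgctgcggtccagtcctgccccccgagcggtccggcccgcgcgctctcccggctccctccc
Frem2 (chr3:53657306-53657605, minus strand): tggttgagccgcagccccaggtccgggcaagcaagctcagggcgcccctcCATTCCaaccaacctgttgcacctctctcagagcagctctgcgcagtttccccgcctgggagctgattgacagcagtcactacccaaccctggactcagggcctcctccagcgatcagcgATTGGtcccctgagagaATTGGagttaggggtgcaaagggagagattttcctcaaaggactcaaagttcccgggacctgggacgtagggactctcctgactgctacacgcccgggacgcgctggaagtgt

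All 4 windows held more GC than the median window of the genome. The Agrn window was the richest, with 83.3% GC, 42 CpG and 12 GC boxes, against a median of 52.7% GC and 7 CpG over 32817 promoter windows of the same length. The Col4a1 and Col4a2 windows, with 74.0% and 73.7% GC, share 78 bases, and the 2 starts lie 21 bp apart. The Frem2 window held 1 TEAD match and 2 CCAAT matches. No window of the 8 genes held an AP-1 or a TATA match, which 5.20% and 13.6% of all windows held, while a TEAD match was in 14.7%, a GC box in 35.6% and a CCAAT box in 37.4% of all windows. A match is a description of the letters, and a missing match says nothing of the factor.

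The deposited counts summed to 11803785 in the stretched library and 8820178 in the control library over 109257 merged regions, and the median region had 27 in the stretched and 30 in the control library. Since 10 very large regions, each over 10000 counts, took up 48.9% of the stretched and 34.5% of the control total, the libraries were scaled by TMM, after which the median region of the genome had a log2 fold of 0.00. Outside these 10 regions the counts summed to 6027023 in the stretched and 5776423 in the control library. The fragments after filtering ran the other way, with 23876613 in the stretched and 31944854 in the control library. The part of this difference in the folds was not tested. Regions of 8 basal keratinocyte markers, Krt5 and Krt14 among them, had a summed fold of 1.05 (95% interval 1.01 to 1.08), at 7.54 CPM per kb in the stretched and 7.20 in the control library. Per gene their folds ran from 0.690 at Krt15 to 1.22 at Trp63, with the interval above 1 for 3 genes and below 1 for 2. Regions of dermal fibroblast markers, a cell type that the sort should remove, had 4.42 CPM per kb in the stretched and 7.20 in the control library, a fold of 0.614 (0.569 to 0.663). Of these marker genes 4 had an interval below 1 and 1 above 1, and Col5a1 alone held 1055 of the 1842 control counts. CPM per kb is the count relative to the scaled library size, per kb of region, and it is the scale on which levels are compared below. A fold is the stretched over the control scaled count, its interval is an exact Clopper-Pearson interval that covers counting error only, and a log2 value of a fold is negative where the stretched library was lower.

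Accessibility at the basement membrane genes leaned towards lower values in the stretched library, at many regions by a little and at few regions by a lot. Of the 115 regions, 14 (12.2%) fell and 1 (0.870%) rose, where a region was called if its fold was at least 2 in either direction and the interval excluded 1. Over all regions of the genome 8.71% fell and 7.22% rose by the same rule. The median log2 fold of the 115 regions was -0.22, and 80 regions (69.6%) had a fold under 1, against 50.1% of all regions. With no limit on the fold, the interval lay below 1 at 29 member regions (25.2%) and above 1 at 10 (8.70%), against 15.6% and 18.6% of all regions. Fewer cells with an open region and less open chromatin per cell cannot be told apart in such bulk libraries, and regions of 1 gene are not independent of each other.

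The fallen regions were mostly weak. Of the 14, 10 had under 50 counts in all, their total counts ran from 20 to 126, and 12 lay inside a gene span or over its end. The authors' peak list of the control library held a peak in 13 of them, 7 of these in that list alone, and that of the stretched library in 6. Of the 8263 fallen regions of the genome, 3043 had a peak in both lists, 3687 in the control list alone and 164 in the stretched list alone. A control peak in most fallen regions is thus not particular to these genes. From 20 to under 50 counts 10 of 40 member regions fell (25.0%), against 13.4% of all regions of that depth, and from 50 to under 100 counts 3 of 23 fell (13.0%), against 10.5%. None of the member regions at these 2 depths rose, against 8.78% and 6.57% of all regions. From 100 to under 200 counts 1 of 33 rose and 1 fell (3.03% each), against 4.66% and 4.53% of all regions. Of the 19 regions with at least 200 counts none was called, while 7.82% of all regions of that depth rose and 1.03% fell. Yet 15 of the 19 (78.9%) had a fold under 1, and the median log2 fold of the 19 was -0.19. Among all regions of that depth 30.0% had a fold under 1 and the median was 0.27. For all regions with 20 to under 50 counts the median was -0.13, so weak regions of the whole genome leaned lower as well.

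**Figure D1:**
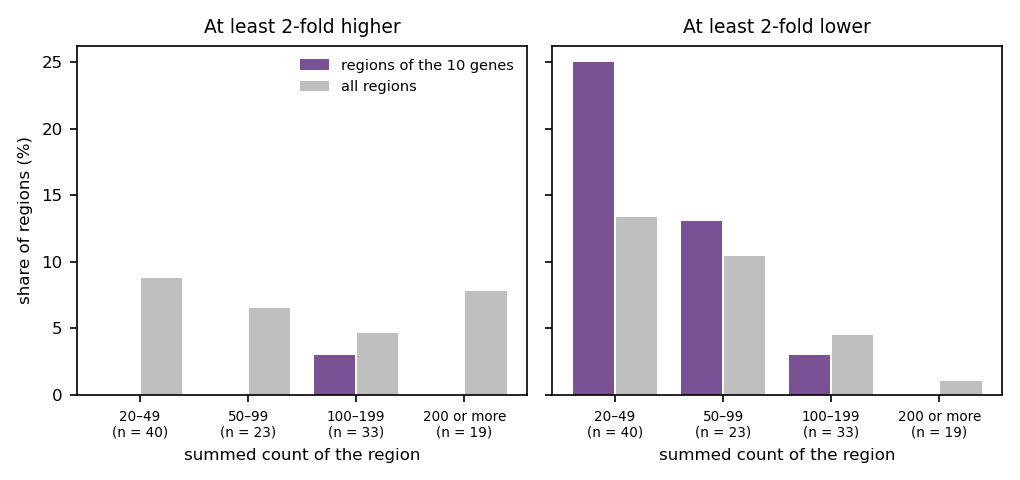
Share of regions (%, vertical axis) that were at least 2-fold higher (left panel) or lower (right panel) in the stretched than in the control library, by the summed count of the region; purple bars are the regions of the 10 genes, with their number under the axis, and grey bars all regions of the genome. The share of fallen member regions is 25.0% from 20 to under 50 counts and 0 at 200 or more.

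Summed over its regions, each gene had 1 level per library, and 8 of the 10 genes had a fold under 1. The interval lay below 1 for Col4a2, Col18a1, Nid2, Hspg2, Fras1 and Frem2, above 1 for Nid1, and included 1 for Col4a1, Col7a1 and Agrn. Of the 9 members with at least 5 regions, the interval lay above 1 for 1 and below 1 for 6. Among all 5656 genes with at least 5 regions it lay above 1 for 40.6% and below 1 for 25.4%, and the median gene had a fold of 1.06. By level the members ran from 2.96 CPM per kb at Nid2 to 9.23 at Agrn in the stretched library, and in the control library from 4.65 CPM per kb at Nid1 to 9.79 at Col18a1. The 2 lowest folds, at Hspg2 and Nid2, differed by less than their counting intervals, and so did those of Col4a2 and Frem2.

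**Figure D2:**
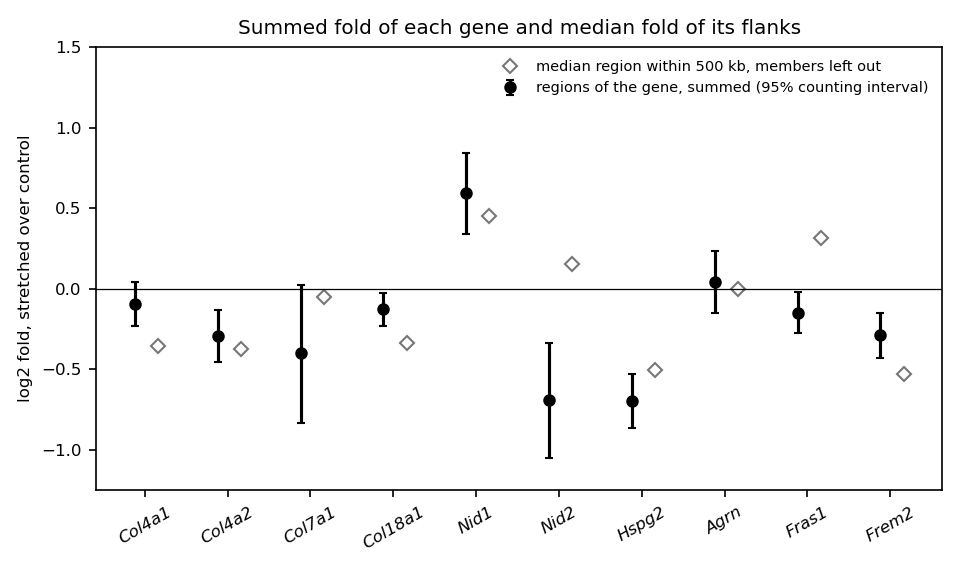
Summed log2 fold of each gene (black points with 95% counting intervals, stretched over control) and the median log2 fold of the other regions within 500 kb of it (open diamonds). Nid1 alone has an interval above 0, Nid2 and Hspg2 lie lowest, and the flanks of Fras1 and of Nid2 lie on the other side of 0 from the gene itself.

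Type IV collagen is encoded by a pair of genes that lie head to head on chromosome 8, Col4a1 (chr8:11198423-11312889, minus strand) and Col4a2 (chr8:11312805-11449287, plus strand), whose products make the α1 and α2 chains of the main collagen network of the sheet. The 16 regions of Col4a1 summed to 845 counts in the stretched and 953 in the control library, a fold of 0.937 (0.853 to 1.03), and none was called. The 11 regions of Col4a2 summed to 547 in the stretched and 708 in the control library, a fold of 0.816 (0.729 to 0.914). Col4a2 was thus lower by its counts and Col4a1 was not separable from no difference, although their intervals overlap.

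The region over both starts (chr8:11312313-11314022), counted with Col4a1 as the shorter span, held 118 counts in the stretched and 179 in the control library, a fold of 0.697 (0.547 to 0.884). Inside Col4a1, 5199 bp from its first start, lay the most accessible region of the pair (chr8:11307183-11308071), with 21.5 CPM per kb in the stretched and 17.2 in the control library, a fold of 1.25 (1.01 to 1.56). So by counts the start they share was lower and the strongest region next to it higher in the stretched library, neither by 2-fold. The summit pileup, not scaled for depth, was 47 fragments in the stretched and 46 in the control library at the start. At the strongest region it was 98 in the stretched and 103 in the control library. Relative to library fragments, less the median of regions with a peak in both lists, the log2 ratios were -0.11 and -0.21. The contrast thus rests on the counts alone. Col4a2 had 1 fallen region, inside the span (chr8:11340338-11340879) with 7 counts in the stretched and 35 in the control library, a fold of 0.211 (0.0792 to 0.483), and neither peak list holds a peak there. Its region with the most counts (chr8:11371519-11372673) had 135 in the stretched and 162 in the control library, a fold of 0.881 (0.696 to 1.11). Farther along the gene, the region at chr8:11419179-11419904 had 61 counts in the stretched and 114 in the control library, a fold of 0.565 (0.407 to 0.778), and that at chr8:11380032-11380792 had 36 in the stretched and 20 in the control library, a fold of 1.90 (1.07 to 3.47). Regions of Col4a2 thus lay on both sides of 1, with 8 of 11 under it. The summed log2 folds were -0.09 for Col4a1 and -0.29 for Col4a2, and the other regions within 500 kb had medians of -0.35 around Col4a1 and -0.38 around Col4a2, so the neighbourhood was low too.

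Col7a1 (chr9:108953586-108984875), whose product forms the anchoring fibrils, had the fewest regions, 2. At its start (chr9:108952957-108953804) there were 80 counts in the stretched and 93 in the control library, a fold of 0.909 (0.666 to 1.24). The control peak list held a peak there, with a summit pileup of 37 fragments, and the stretched list held none. A short region inside the gene (chr9:108978223-108978492) fell, with 1 count in the stretched and 20 in the control library, and the ratio of control to stretched was 18.9 with a counting interval of 3.03 to 784. The start was thus close to even, and the fall rests on a region with 21 counts in all.

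Col18a1 (chr10:77052178-77166530, minus strand), the gene of the proteoglycan collagen XVIII from which endostatin is cut, was at 8.96 CPM per kb in the stretched and 9.79 in the control library, where only Col7a1, at 9.64, came close to it. Its 19 regions summed to 1410 counts in the stretched and 1628 in the control library, a fold of 0.915 (0.852 to 0.983), and 13 of the 19 had a fold under 1. The first annotated start (chr10:77165415-77166800) had 82 in the stretched and 111 in the control library, a fold of 0.781 (0.580 to 1.05). At the second annotated start (chr10:77113318-77114276) there were 59 in the stretched and 66 in the control library, a fold of 0.945 (0.653 to 1.36). Neither start was separable from no difference. The called region, a fall inside the span (chr10:77098582-77098993), had 15 counts in the stretched and 32 in the control library, a fold of 0.495 (0.249 to 0.942). The strongest region by level of all members lay 44088 bp outside the span (chr10:77210618-77211752), at 22.5 CPM per kb in the stretched and 19.2 in the control library, a fold of 1.18 (0.981 to 1.41). Its summit pileup, not scaled for depth, was 111 fragments in the stretched and 119 in the control library. The annotated genes Gm35837 and Gm40704 overlap that region too. The summed log2 fold of Col18a1 was -0.13, and its flanks had a median of -0.34.

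The nidogens, which bridge the laminin and collagen networks, went apart. Nid1 (chr13:13437602-13512275) had 321 counts in the stretched and 225 in the control library over 8 regions, a fold of 1.51 (1.27 to 1.80), and 10.7% of the 5656 genes had a fold as high or higher. Nid2 (chr14:19751257-19811787) had 105 in the stretched and 179 in the control library over 6 regions, a fold of 0.620 (0.482 to 0.793), and 3.57% of genes had a fold as low or lower. The intervals of the 2 genes lie on opposite sides of 1 and far from each other.

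Nid1 held the 1 region of the set that rose (chr13:13443601-13444180), 6288 bp from the annotated start. It had 82 counts in the stretched and 42 in the control library, a fold of 2.06 (1.41 to 3.07), and the summit pileup, which is not scaled for depth, was 44 fragments in the stretched and 18 in the control library. A region near the far end of the gene (chr13:13506440-13507187) had 75 in the stretched and 42 in the control library, a fold of 1.89 (1.28 to 2.82). One 16546 bp beyond the gene (chr13:13528821-13529683) had 66 in the stretched and 43 in the control library, a fold of 1.62 (1.09 to 2.44). These 3 regions are the best counted of the gene and all had intervals above 1. Of the other 5, all with 66 counts or fewer, 3 had a fold over 1 and 2 under 1, and no interval excluded 1. No merged region covered the annotated start of Nid1, so the higher level came from inside and beyond the gene. The summed log2 fold of Nid1 was 0.59, and its flanks had a median of 0.45 over 22 regions, of which 3 rose and 3 fell.

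All 6 regions of Nid2 had a fold under 1, but 4 of them lay outside the span, by 15231 to 45343 bp. Each of those outside overlaps another annotated gene, Gm17030 or Gm29899. With only the 2 regions that touch the span, the summed log2 fold was -0.80. The region with the most counts lay over 1 end of its span (chr14:19750608-19751662) and fell, with 23 counts in the stretched and 50 in the control library, a fold of 0.486 (0.283 to 0.812). Another fall, 45343 bp outside the span (chr14:19705603-19705914), had 7 counts in the stretched and 22 in the control library, a fold of 0.336 (0.121 to 0.815). The 4 regions that were not called had folds from 0.677 to 0.881 with intervals that include 1. The summed log2 fold of Nid2 was -0.69, below the regions near it, whose median was 0.15 over 35 regions. Its level, 2.96 CPM per kb in the stretched and 4.77 in the control library, was the lowest of the members in the stretched library and next to that of Nid1 in the control library.

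**Figure D3:**
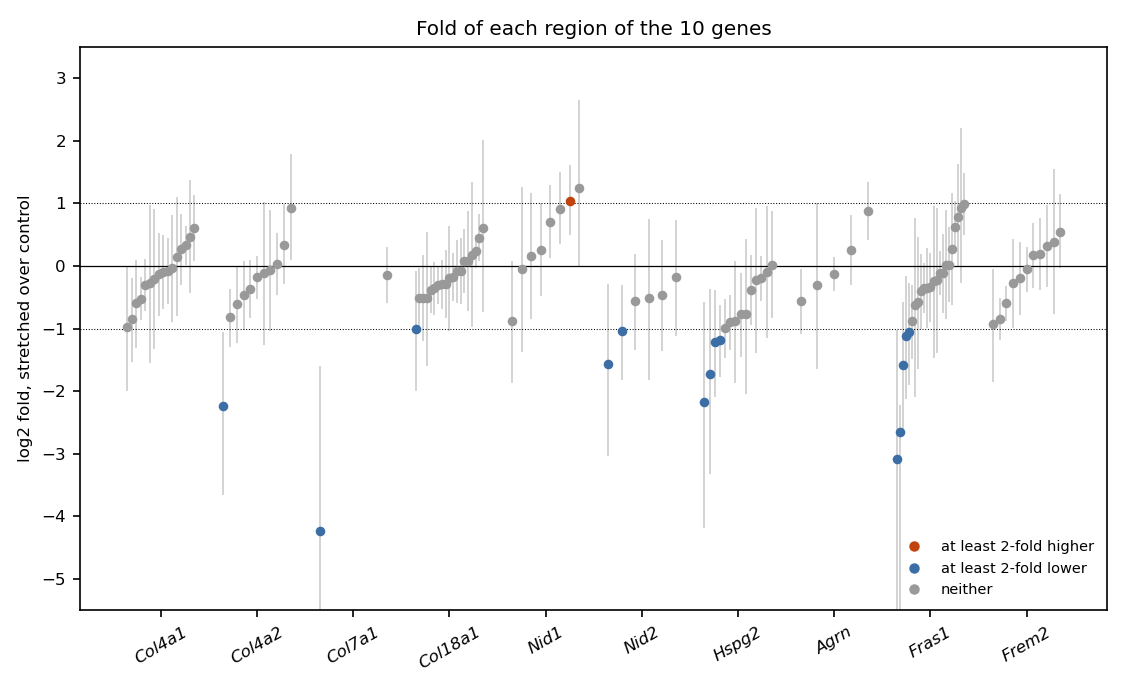
Log2 fold (stretched over control) of each of the 115 regions, sorted within its gene, with 95% counting intervals as grey lines; red points rose and blue points fell by at least 2-fold, and dotted lines mark that limit. The lowest point of Col7a1 rests on 1 stretched count, and the Fras1 region with 0 stretched counts is drawn at its bound with 0 set to 3.

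Hspg2 (chr4:137468751-137570630, plus strand) encodes perlecan, the large heparan sulfate proteoglycan that binds growth factors in the sheet, and it had the lowest summed fold of the 10 genes. Its 14 regions summed to 468 counts in the stretched and 801 in the control library, a fold of 0.617 (0.550 to 0.693), and 3.34% of the 5656 genes had a fold as low or lower. Of the 14 regions, 13 had a fold under 1, at 7 the interval lay below 1, and 4 fell. The start region (chr4:137467796-137471082) was among the nearest to 1, with 120 counts in the stretched and 145 in the control library, a fold of 0.875 (0.681 to 1.12).

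The falls lay along the gene body. The nearest to the start (chr4:137476340-137477250) had 37 counts in the stretched and 89 in the control library, a fold of 0.439 (0.291 to 0.651), and a summit pileup of 20 fragments in the stretched and 47 in the control library. A region 20428 bp into the gene (chr4:137488650-137489812) had 18 in the stretched and 44 in the control library, a fold of 0.432 (0.235 to 0.764). In both, the counts and the summit pileup, which is not scaled for depth, were lower in the stretched library. Counts and pileup come from the same libraries, so the pileup is not separate support. The other falls were weak regions with a peak in the control list alone: chr4:137522062-137522364 had 4 counts in the stretched and 19 in the control library, a fold of 0.222 (0.0550 to 0.669), and chr4:137546168-137546526 had 6 in the stretched and 21 in the control library, a fold of 0.302 (0.0997 to 0.773). Among better counted regions just short of the limit, chr4:137511622-137512890 had 57 in the stretched and 120 in the control library, a fold of 0.502 (0.360 to 0.694), and chr4:137540171-137541474 had 68 in the stretched and 134 in the control library, a fold of 0.536 (0.394 to 0.723). The lower level of Hspg2 was thus spread over regions of high and low count. The summed log2 fold of Hspg2 was -0.70, and its flanks had a median of -0.51, with 14 of 107 regions fallen and 4 risen. Fibroblast and vascular cells also make perlecan, and the 36 regions of 7 of 8 fibroblast marker genes (Lum had none) held 11 falls, 9 of them at Col5a1, and 1 rise, while 7 endothelial and mural genes had a summed fold of 0.831 (0.767 to 0.899), at 4.88 CPM per kb in the stretched and 5.87 in the control library. The other marker lists also had summed folds under 1, of 0.901 (0.850 to 0.955) for hair follicle, 0.897 (0.839 to 0.959) for melanocyte and Schwann and 0.901 (0.767 to 1.06) for immune genes, the last with an interval that includes 1. Per gene the fibroblast markers ran from 1.57 CPM per kb at Twist2 to 7.87 at Dcn in the stretched library, and from 2.39 at Col3a1 to 8.08 at Col5a1 in the control library. Their folds ran from 0.379 at Twist2 to 1.69 (1.16 to 2.48) at Dcn. Those of the endothelial and mural genes ran from 0.488 at Emcn to 1.43 (1.04 to 1.98) at Cdh5. In each of these 2 lists the interval lay below 1 for 4 genes and above 1 for 1. The part of these cells in the lower values of Hspg2, Nid2 and the collagens was not tested.

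Agrn (chr4:156165290-156197533, minus strand) encodes agrin, a proteoglycan that binds laminin and dystroglycan. Its 5 regions summed to 443 counts in the stretched and 454 in the control library, a fold of 1.03 (0.903 to 1.18), and none was called. Under this even sum, regions close to each other differed. The start region (chr4:156196742-156198133), which covers the GC-rich window printed above, had 111 counts in the stretched and 64 in the control library, a fold of 1.83 (1.34 to 2.53), and only the stretched list held peaks there, 2 of them. Next to it, 1455 bp into the gene, chr4:156195679-156196387 had 53 in the stretched and 83 in the control library, a fold of 0.675 (0.469 to 0.964), and only the control list held a peak. The region with the most counts (chr4:156192282-156193648) had 208 in the stretched and 240 in the control library, a fold of 0.916 (0.757 to 1.11), and the second annotated start (chr4:156186024-156186696) had 10 in the stretched and 13 in the control library, a fold of 0.813 (0.319 to 2.01). Agrn was the 1 member whose start region had an interval above 1, and the annotated lncRNA Gm46878 overlaps that region too. The summed log2 fold of Agrn was 0.04, and its flanks had a median of 0.00.

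FRAS1 and FREM2 are large proteins at the underside of the epidermal basement membrane that depend on each other for their place there. Fras1 (chr5:96373777-96784733), the longest of the spans, had 23 regions with 901 counts in the stretched and 1055 in the control library, a fold of 0.902 (0.825 to 0.987). Of these, 16 had a fold under 1 and 5 fell, the most of any member, as it also had the most regions. All falls but 1 lay inside the span, and none had over 64 counts in all. At chr5:96677334-96677962 there were 20 counts in the stretched and 44 in the control library, a fold of 0.480 (0.268 to 0.832). At chr5:96331365-96331878, 41899 bp outside the span, there were 14 in the stretched and 32 in the control library, a fold of 0.462 (0.228 to 0.891). At chr5:96478013-96478530 there were 11 in the stretched and 35 in the control library, a fold of 0.332 (0.152 to 0.669), but the summit pileup there ran the other way, with 18 fragments in the stretched and 14 in the control library. That call therefore depends on which of the deposited values is read. The stretched pileup there is above the stretched count of 11. The same holds in 4 of the 115 regions, the Nid2 fall outside the span among them, and in 3543 of all regions, and whether reads or fragments were counted is not stated, so counts and pileup cannot be set on 1 scale. The last pair were short regions with few counts: chr5:96660340-96660572 had 2 in the stretched and 18 in the control library, with a ratio of control to stretched of 8.52 (2.04 to 75.7), and chr5:96681303-96681505 had 0 in the stretched and 20 in the control library, at least 6.31-fold lower against the floor of 3 counts that a count of 0 allows. That floor leaves out the counting error of the control count, and the interval of the ratio of control to stretched starts at 4.67.

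The better counted regions of Fras1 lay on both sides of 1. The region with the most counts, over 1 end of the span (chr5:96373445-96375176), had 130 counts in the stretched and 149 in the control library, a fold of 0.922 (0.723 to 1.17). Inside the gene, chr5:96578340-96579347 had 101 in the stretched and 54 in the control library, a fold of 1.98 (1.41 to 2.80), just under the limit, with a summit pileup of 73 fragments in the stretched and 19 in the control library. At chr5:96619939-96620991 there were 121 in the stretched and 83 in the control library, a fold of 1.54 (1.16 to 2.06). Against these, chr5:96716238-96716907 had 38 in the stretched and 74 in the control library, a fold of 0.543 (0.357 to 0.813). The sum over Fras1 thus joins regions that were higher and lower in the stretched library. Its log2 fold was -0.15, and its flanks lay on the other side of 0, with a median of 0.32 over 60 regions, of which 5 rose and 1 fell.

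Frem2 (chr3:53513938-53658593, minus strand) had 754 counts in the stretched and 973 in the control library over 11 regions, a fold of 0.819 (0.744 to 0.901), with no called region. The difference came from few regions: 6 of 11 had a fold under 1, the median region had a log2 fold of -0.05, and 3 had an interval below 1. The start region (chr3:53656478-53657926), the one with the most counts, had 175 in the stretched and 279 in the control library, a fold of 0.663 (0.545 to 0.804), with a summit pileup of 105 fragments in the stretched and 134 in the control library. Deep in the gene, 93069 bp from the start, chr3:53563575-53564998 had 113 in the stretched and 215 in the control library, a fold of 0.555 (0.438 to 0.701). The third, chr3:53522362-53522873, had 17 in the stretched and 34 in the control library, a fold of 0.528 (0.277 to 0.972). Upstream of the start, 3109 to 23666 bp outside the span, 3 regions had folds from 1.14 to 1.46 with intervals that include 1. The summed log2 fold of Frem2 was -0.29, and its flanks had a median of -0.53.

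**Figure D4:**
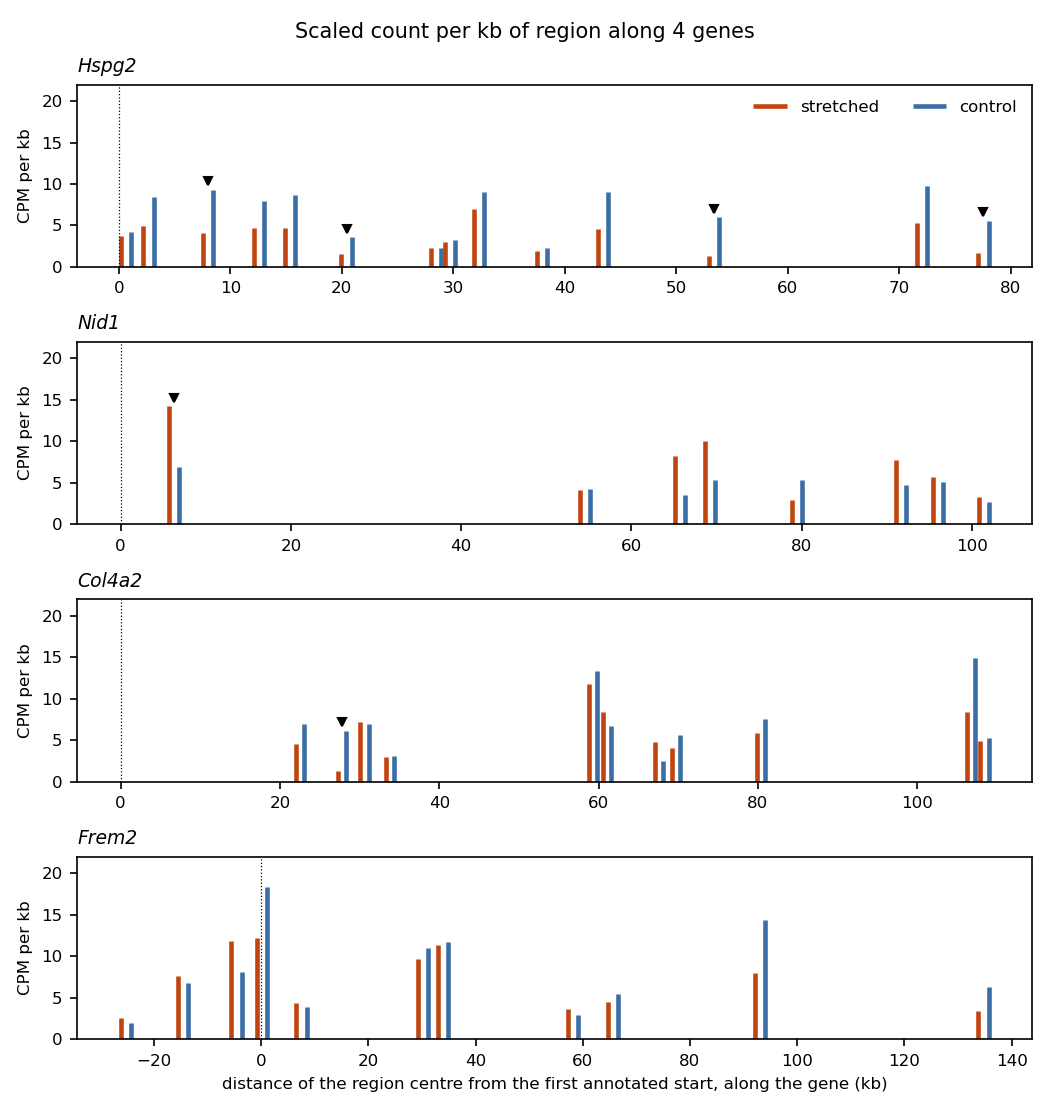
Scaled count per kb of region (CPM per kb) in the stretched (red) and the control library (blue) along Hspg2, Nid1, Col4a2 and Frem2, by distance of the region centre from the first annotated start (dotted line) in the direction of the gene; the 2 bars of a region are drawn side by side and triangles mark called regions. Hspg2 is lower in the stretched library at 13 of 14 regions, Nid1 is higher at its 3 best counted regions, and Frem2 differs most at its start and 93069 bp into the gene.

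By place, the start regions of the members mostly had folds under 1, where those of the genome mostly did not. The 8 regions over an annotated start were assigned to 6 of the genes, and the one at Col4a1 also covers the start of Col4a2. They held no call, but 7 had a fold under 1 and their median log2 fold was -0.25. The interval lay below 1 at 2 of them (25.0%) and above 1 at 1 (12.5%), against 9.26% and 42.6% of all regions at annotated starts. Over all 11739 regions at annotated starts, 9.49% rose, 2.57% fell, 31.4% had a fold under 1 and the median log2 fold was 0.28. Among those with 100 to under 300 counts, the depth of most member starts, the median was 0.20 and 34.9% had a fold under 1. Regions inside the spans (82, of which 1 rose and 11 fell) had a median of -0.26, and those outside (23, of which none rose and 2 fell) a median of -0.13. The remaining 2 regions lie over an end of the Nid2 and Fras1 spans, whose strand is not in the table used, and the one at Nid2 fell. With so few start regions, and with 1 animal per group, this is a description of these libraries.

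The authors' peak lists, called in each library alone, held 110 summits of the stretched and 124 of the control library inside the 115 regions, against 93114 of the stretched and 94181 of the control library inside all regions with at least 20 counts. Both lists held a peak in 69 member regions (60.0%, against 60.2% of all regions). The stretched list alone held one in 16 (13.9%, against 14.9%), the control list alone in 16 (13.9%, against 9.33%), and neither in 14 (12.2%, against 15.6%). In the 69 shared regions the summit pileup relative to the fragments of its library, less the median of all shared regions, had a median log2 ratio of -0.19, and 47 of the 69 lay below 0. The median was highest at Nid1, 0.91, and lowest at Hspg2, -0.79, the same ends as in the counts, which come from the same libraries.

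Other genes of the basement membrane and its upkeep held rises and falls in more even numbers. Of 296 regions at 30 further basement membrane genes, the laminins, other collagen IV chains, fibulins and SMOC proteins among them, 12 rose and 20 fell, with a median log2 fold of -0.06. Within it, the matricellular gene Smoc2 (3 falls in 22 regions, fold 0.822) and fibulin 1, Fbln1 (3 falls in 19, fold 0.779), were lower, and the laminin α1 gene Lama1 (3 rises in 15, fold 1.31) was higher in the stretched library. At 20 matrix receptor genes 14 of 226 regions rose and 12 fell, with a median log2 fold of 0.08. The integrin genes Itgav (1 rise, 3 falls) and Itgb5 (1 rise, 2 falls) had the most calls, with summed folds of 1.42 and 0.979. Itgb6 (2 rises, fold 1.06) had the largest count among genes with 2 calls. The others were Itga1, Itgb1 and Grip1 with 2 rises each and Lrp4 with 2 falls, at folds of 1.14, 1.35, 1.27 and 0.808. At 28 of 29 genes of collagen processing and matrix remodelling 15 of 160 regions rose and 9 fell, with a median of 0.02, and the protease gene Adamts1 (2 rises, 1 fall), the prolyl 3-hydroxylase gene P3h2 (1 rise, 1 fall) and the cathepsin L gene Ctsl (2 rises) had summed folds of 1.57, 1.07 and 1.37. The shares of called regions in these lists, from 4.05% to 9.38% risen and from 5.31% to 6.76% fallen, lie beside 7.22% and 8.71% of all regions.

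The size and the balance of these counts depend on the scaling. With scaling by the total counts, which include the 10 large regions, 0 member regions rose and 35 fell, beside 1590 rises and 22043 falls among all regions, and the median log2 fold of all regions moved by -0.50. With scaling by the counts outside those regions, 0 rose and 21 fell, beside 4663 and 11172 among all. The median of the member regions lay below that of all regions under both, at -0.72 against -0.50 and at -0.36 against -0.14.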

How the data were processed

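ATAC-seq libraries of 1 stretched and 1 control mouse were analysed from the deposited files. Per the submitters' processing notes, the build was GRCm38, and the tools were HTSeq, Picard, SAMtools, Bowtie2 2.2.6 and MACS2 2.1.0.20151222. Both libraries have deposited counts, whole and not normalized, for 1 common set of merged regions. The sources used here do not give how they were made (the program, the handling of duplicates and of the Tn5 offset, the merging). Peaks were called by the authors on each library alone with a q cutoff of 0.05, per the file headers. The same headers give 23876613 stretched and 31944854 control fragments after filtering. The deposited pileup is a signal in fragments at each summit, and the deposited −log10 p and q values and the deposited ratio, MACS2's fold enrichment, compare a summit with the background of its own library.

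Scaling used TMM in edgeR 4.0.16 (R 4.3.3), and folds, intervals and figures scipy 1.17.1, statsmodels 0.14.6, pandas 2.3.3, numpy 2.4.6 and matplotlib 3.10.9 on Python 3.11.15. A region was called with at least 20 counts, a fold of at least 2 and an exact 95% Clopper-Pearson interval without 1. No test was run, since each group has 1 library. Without molecular identifiers, counts need not be independent molecules, and the intervals hold for counting error alone. The calling step was run on simulated counts that held counting error alone. That run cannot show how the calls behave with variation between animals or libraries. Gene spans, starts and promoter windows came from RefSeq on GRCm38.p6, with 21896 protein-coding genes; exons and introns were not used, and Nid2 and Fras1 had no strand.

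The members and lists were chosen with earlier results of these data known. Named were all members, their called, best counted and start regions, and up to 3 genes per list with the most called regions, ties going to the larger count. The better counted regions of Nid1, Nid2, Hspg2, Fras1, Frem2, Agrn and Col4a2 given besides were chosen after their values were seen. Alternatives were scaling by total counts, by DESeq2 1.42.0 size factors and by counts outside the 10 large regions, a lowess trend removed, other count and fold limits, peaks of −log10 q of at least 5, regions with a peak or inside the span, and assignment to the nearest gene end. A minimum of 100 counts and the removal of the median of like regions or of the flanks were added after seeing the data.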

Additional observations from a re-analysis of the deposited data

How the results depend on the processing

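The count of risen regions, 1, was 0 with scaling by total counts and by counts outside the large regions, 3 with a lowess trend removed, 2 with no filter on low counts, 8 at a fold of 1.5, and 3 with the median of the regions most like it in count and gene density removed. The count of fallen regions, 14, was 35 with scaling by total counts, 24 at a fold of 1.5, 4 with at least 50 counts and 1 with at least 100, where fewer regions enter, and between 10 and 21 under the other alternatives. The median log2 fold, -0.22, was -0.72 with scaling by total counts, -0.36 with scaling outside the large regions and -0.18 to -0.26 otherwise. With the median of the flanks removed, a setting chosen after seeing the data, Col4a1 (0.26), Col18a1 (0.21), Col4a2 (0.084) and Frem2 (0.24) turned above 0, and 4 of the 10 genes lay below 0 in place of 8. Nid1 lay above 0 (0.09 to 0.92) and Hspg2 (-1.20 to -0.19) and Nid2 (-1.19 to -0.58) below 0 under all 10 alternatives run on gene sums. Nid1 came close to 0 with scaling by total counts (0.09) and with the flanks removed (0.14). Both values lie under the log2 counting interval of its main sum, 0.34 to 0.84. Hspg2 was nearest to 0, at -0.19, with the flanks removed. A sign that holds does not show a difference beyond counting error. At a −log10 q of at least 5, 86 stretched and 88 control summits passed. The cause of these shifts was not tested. No paired analysis was possible because each group has 1 sample and no test was run. Regions under 50 counts hold 10 of the 14 falls, and depth limits what they can show.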
